A study of Mus musculus with 6 samples.

Results

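The 10 genes described here encode products that neutrophils carry in their granules or cytosol, or a receptor by which they are regulated, and they were selected from earlier results of these data because they rose in the lungs of Yap1,Wwtr1 iPCKO mice. They are S100a8, S100a9, Retnlg, Csf3r, Ngp, Camp, Ltf, Lcn2, Mpo and Elane, found by matching the Ensembl identifiers of the files to symbols in GENCODE M21, and all 10 were present among the 21603 genes of the files. The RNA came from 6 lungs at postnatal day 8, 3 control and 3 iPCKO. All mice were C57BL/6, carried the tamoxifen-inducible Pdgfrb(BAC)-CreERT2 transgene and the Cre-dependent Rpl22-HA allele (RiboTag), and received tamoxifen from P0 to P2. Controls were Yap1+/-;Wwtr1+/- per the labels, meaning a single floxed copy of each gene in the study's methods, whereas iPCKO mice were Yap1-/-;Wwtr1-/- with both copies of Yap1 and of Wwtr1 floxed. RNA was recovered by immunoprecipitating HA-tagged ribosomes from lung lysate, so that it should come mainly from Cre-expressing cells, and the limits of this model are that the transgene is driven by the Pdgfrb promoter and that controls have already lost a copy of each gene. Enrichment over input RNA was not analysed here. Lungs were perfused through the right ventricle before freezing.

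Neutrophils make their granule proteins in an order that follows their maturation in bone marrow. Promyelocytes transcribe the genes of azurophil (primary) granules such as myeloperoxidase and neutrophil elastase, myelocytes and metamyelocytes transcribe those of specific (secondary) granules such as lactoferrin, and gelatinase granules come later. The messages of azurophil and specific granule proteins are largely shut off before the cell leaves the marrow, while those of the calgranulins S100a8 and S100a9 and of surface receptors stay high in circulating cells. Accordingly the members are described in 3 groups. S100a8, S100a9, Retnlg and Csf3r are called the late members, Ngp, Camp, Ltf and Lcn2 the specific granule members, and Mpo and Elane the azurophil members.

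Pericyte markers were abundant in every sample. Pdgfrb lay between 1193 and 1666 RPKM (the unit of the files, read number divided by exon length in kb and by library depth in M reads), and the summed level of 8 pericyte markers was 2873 to 3682 RPKM in controls and 2642 to 3245 in iPCKO lungs. The sum hides changes in both directions. By the thresholds given below, 3 of the 8 markers were higher and 2 lower in iPCKO lungs, beside 4.11% and 2.68% of all tested genes. Yap1, the transcriptional co-activator deleted in these mice, had 13.2, 11.5 and 12.4 RPKM in controls 1, 2 and 3 and 5.76, 5.83 and 5.25 in iPCKO lungs 1, 2 and 3. It fell by 1.12 on the log2 scale (SE 0.093). Wwtr1, which encodes the related co-activator TAZ, showed 71.3, 53.8 and 56.1 RPKM in controls against 63.5, 60.3 and 62.2 in iPCKO lungs. A value over a whole gene does not resolve the floxed exons, so Wwtr1 did not check the labels. The steps of low RPKM values imply 14.2 to 39.6 M mapped reads per library. The labels number the samples 1 to 3 within each group and link no numbers across groups, so p-values measure the spread between these lungs.

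The upstream sequences of members are shown because the genes moved together across lungs and because the granule programme is classically placed under C/EBP factors and PU.1. All 10 members had a promoter entry in RefSeq (GRCm38.p6), and the 250 bases before each start site were searched on both strands. Only stretches that hold no exon in GENCODE are printed. Capitals mark matches to TTGCNNAA, a C/EBP core, or to GAGGAAGT, a PU.1 core, on either strand. The 5 sequences below cover the calgranulin pair, a pair of specific granule genes and an azurophil gene.
S100a8 (chr3:90668821-90668977, GRCm38.p6, plus strand): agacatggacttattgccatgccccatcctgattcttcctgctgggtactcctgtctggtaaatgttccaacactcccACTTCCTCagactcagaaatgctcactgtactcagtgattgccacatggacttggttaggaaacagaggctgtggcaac
S100a9 (chr3:90695722-90695971, GRCm38.p6, minus strand): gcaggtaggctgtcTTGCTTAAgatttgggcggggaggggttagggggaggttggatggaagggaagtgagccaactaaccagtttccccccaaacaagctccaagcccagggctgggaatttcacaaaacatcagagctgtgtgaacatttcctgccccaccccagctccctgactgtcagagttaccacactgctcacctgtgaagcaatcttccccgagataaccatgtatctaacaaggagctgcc
Ngp (chr9:110419558-110419746, GRCm38.p6, plus strand): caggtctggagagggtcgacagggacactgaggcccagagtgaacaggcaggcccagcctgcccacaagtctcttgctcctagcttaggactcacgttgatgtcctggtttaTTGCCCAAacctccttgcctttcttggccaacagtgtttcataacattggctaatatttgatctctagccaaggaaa
Ltf (chr9:111019042-111019270, GRCm38.p6, plus strand): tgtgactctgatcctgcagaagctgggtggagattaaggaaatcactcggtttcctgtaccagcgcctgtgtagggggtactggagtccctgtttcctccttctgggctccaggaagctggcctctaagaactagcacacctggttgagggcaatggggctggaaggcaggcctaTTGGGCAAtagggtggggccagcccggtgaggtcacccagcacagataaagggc
Elane (chr10:79886062-79886246, GRCm38.p6, plus strand): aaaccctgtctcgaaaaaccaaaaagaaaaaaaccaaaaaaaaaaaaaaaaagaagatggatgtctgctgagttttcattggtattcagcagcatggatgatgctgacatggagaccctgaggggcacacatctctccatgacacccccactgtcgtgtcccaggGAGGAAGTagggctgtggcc

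The letters TTGCNNAA stood in the windows of 5 of the 10 members, S100a9, Retnlg, Ngp, Ltf and Lcn2, against 9.56% of 32851 RefSeq windows of the same length. In S100a9 the match lay at positions -236 to -229 from the start site, in Ltf at -75 to -68, and Ngp held matches at -138 to -131 and at -11 to -4. A related spelling, TTGCNNCA, stood in 6 members, S100a8, S100a9, Csf3r, Camp, Mpo and Elane, and in 9.59% of all windows. All 10 members held at least 1 of these spellings, which differ in a single letter, and so did 18.1% of all windows. GAGGAAGT was found in S100a8, Mpo and Elane and in 2.44% of windows, and its shorter part GAGGAA, which overlaps it, in 6 members and 23.3% of windows. GGAATG, the core bound by the TEAD partners of YAP1 and TAZ, was found in Retnlg alone among the members and in 12.6% of windows, and TATAAA in S100a8 alone at -30 to -25 and in 12.4% of windows. The counts cover whole windows, and parts of most members' windows overlap exons annotated in GENCODE. In Camp, Lcn2, Mpo and Elane every match to either C/EBP spelling lay in such an exon. So did the Ngp match at -11 to -4, GAGGAA in Csf3r and Lcn2, and TATAAA in S100a8. The Csf3r match to TTGCNNCA at -13 to -6 and the S100a8 match to GAGGAA at -36 to -31 lay in exons as well. Exons were not removed from the shares over all windows either. These are matches of letters and not measured binding.

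S100a8 and S100a9, whose products form the calcium- and zinc-binding heterodimer calprotectin, were the most abundant members in every sample. S100a8 had 25.6, 39.4 and 28 RPKM in controls 1, 2 and 3 and 156, 727 and 1726 RPKM in iPCKO lungs 1, 2 and 3. S100a9 had 40.6, 52.7 and 39.9 RPKM in controls and 221, 981 and 2346 RPKM in iPCKO lungs. Controls lay close together, the iPCKO lungs spread widely, and the lowest iPCKO lung exceeded the highest control 3.97-fold for S100a8 and 4.19-fold for S100a9. Among all genes of a sample, S100a9 stood at rank 784 to 1227 in controls, at rank 131 in iPCKO 1 and at rank 7 in iPCKO 2, and it had the highest RPKM of any gene in iPCKO 3. On the log2(RPKM + 0.1) scale used for all fold changes, the difference between group means was 4.25 (SE 0.71, n = 3 per group) for S100a8 and 4.18 (SE 0.69, n = 3 per group) for S100a9. Both genes lie on chromosome 3 on opposite strands, S100a8 at 90668978-90670035 and S100a9 at 90692632-90695721 (GRCm38), with 22.6 kb and no other gene of the files between them.

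Retnlg, which encodes the secreted resistin-like gamma of myeloid cells, was a low transcript in controls, with 2.84, 3.21 and 1.94 RPKM. In iPCKO lungs it had 15.8, 82.9 and 216 RPKM, and its difference of 4.60 (SE 0.77) was the largest of the members. Csf3r, the receptor for the granulocyte growth factor G-CSF, had 1.24, 1.89 and 1.5 RPKM in controls and 6.64, 12.1 and 18.3 RPKM in iPCKO lungs. It stood apart from the other late members by its narrow range within the iPCKO group, where the highest lung exceeded the lowest 2.77-fold, against 11.1-fold for S100a8, 10.6-fold for S100a9 and 13.6-fold for Retnlg. Its difference was 2.82 (SE 0.32), the smallest SE among the members that were tested. Retnlg lies at chr16:48872621-48874496 on the plus strand and Csf3r at chr4:126024550-126044440 on the plus strand (GRCm38).

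The specific granule members differed by 2.84 to 3.28 on the log2 scale, below S100a8, S100a9 and Retnlg but not below Csf3r. Ngp, neutrophilic granule protein, had 6.42, 12.6 and 7.93 RPKM in controls and 19.7, 69.7 and 274 RPKM in iPCKO lungs. Camp, the precursor of the antimicrobial peptide CRAMP, had 4.14, 7.54 and 4.36 RPKM in controls and 11.0, 38.7 and 124 RPKM in iPCKO lungs. Ltf, the iron-binding lactoferrin, had 3.98, 8.18 and 5.13 RPKM in controls and 9.99, 44.5 and 170 RPKM in iPCKO lungs. In each of these genes control 2 was the highest control, iPCKO 1 the lowest iPCKO lung and iPCKO 3 the highest, and the groups did not overlap. Over all tested genes 18.3% had every iPCKO lung above every control. For these members the gap between the groups was narrow. The lowest iPCKO lung exceeded the highest control 1.57-fold for Ngp, 1.46-fold for Camp and 1.22-fold for Ltf. Lcn2, the siderophore-binding lipocalin 2, had 1.87, 3.59 and 2.67 RPKM in controls and 7.14, 29.6 and 85.7 RPKM in iPCKO lungs, with a gap of 1.99-fold. The log2 differences were 3.05 (SE 0.78) for Ngp, 2.84 (SE 0.72) for Camp, 2.92 (SE 0.83) for Ltf and 3.28 (SE 0.73) for Lcn2. Camp, Ngp and Ltf lie on chromosome 9, with 570 kb and 8 genes of the files between Camp and Ngp and 596 kb and 20 genes between Ngp and Ltf, and they are therefore not immediate neighbours.

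**Figure D1:**
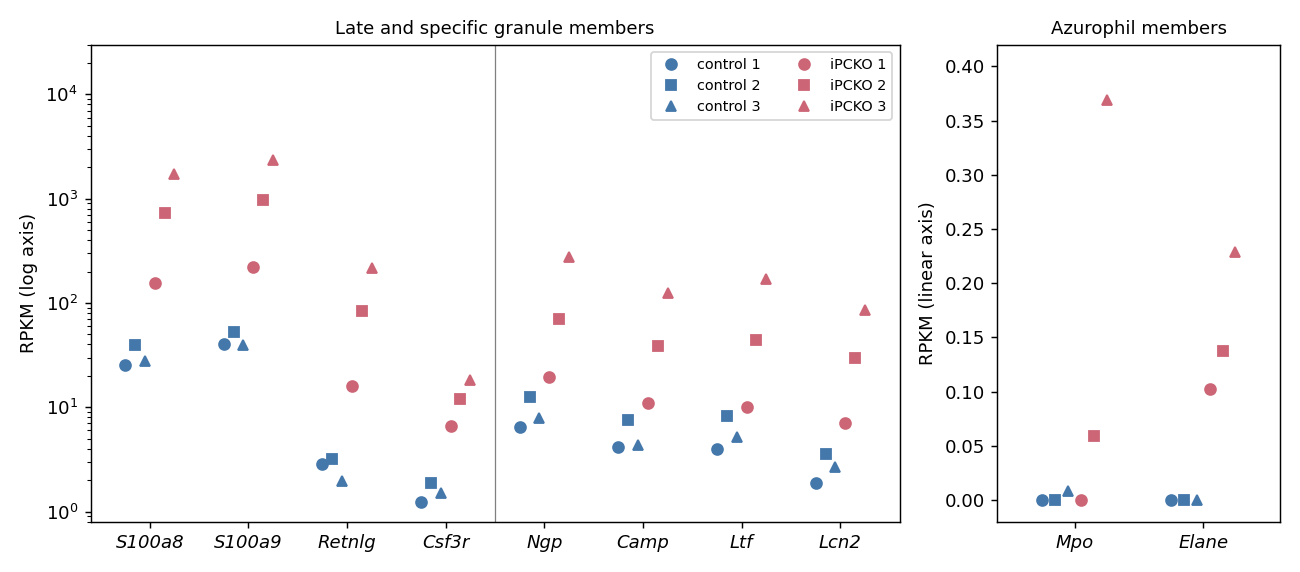
RPKM of the 10 members in each of the 6 lungs, with the 8 late and specific granule members on a log axis and the azurophil members Mpo and Elane on a linear axis. Each point is 1 lung, and the controls cluster while the iPCKO lungs spread, iPCKO 1 lowest and iPCKO 3 highest for all 8 genes of the left panel.

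The azurophil members were barely detected. Mpo, which makes hypochlorous acid, was listed at 0 in controls 1 and 2 and at 0.0084 RPKM in control 3, and at 0, 0.059 and 0.369 RPKM in iPCKO lungs 1, 2 and 3. These values correspond to about 0, 0 and 1 read in controls and 0, 8 and 18 reads in iPCKO lungs, as read from the steps of the values with GENCODE exon lengths. Elane, neutrophil elastase, was listed at 0 in all 3 controls and at 0.103, 0.137 and 0.229 RPKM in iPCKO lungs, about 2.1, 5.3 and 3.2 reads. Mpo overlapped between the groups, because iPCKO 1 was at 0 like controls 1 and 2. In iPCKO 3, the lung with the most S100a9, Mpo thus stood at 0.369 RPKM beside 170 RPKM of Ltf and 2346 RPKM of S100a9. No fold change is given for Mpo or Elane, since controls were at 0 or near 1 read.

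Of the 10 members, 8 passed the filter on low values, which asked for 1 RPKM or more in any 3 samples, and all 8 reached 1 RPKM in every sample, so that none entered only through its level in iPCKO lungs. A gene was called where its limma adjusted p was under 0.01 and its log2 difference exceeded 0.5 in size. The 4 late members were past both thresholds (limma adjusted p = 0.005 for S100a8 and Retnlg, 0.0049 for S100a9 and 0.00082 for Csf3r), and none of the 4 specific granule members was (limma adjusted p = 0.032 for Ngp, 0.031 for Camp, 0.049 for Ltf and 0.019 for Lcn2). Over all 12034 tested genes 4.11% were called higher in iPCKO, 2.68% lower and 6.79% in either direction. All 8 tested members had every iPCKO lung above every control, a pattern shown by 18.3% of tested genes, while 17.1% had every iPCKO lung below every control. The members were chosen by this contrast, so these counts describe the choice. The calls of S100a8, S100a9 and Retnlg rested on all lungs but iPCKO 1 and iPCKO 3, since without any 1 of control 1, control 2, control 3 or iPCKO 2 only Csf3r was still called, with log2 differences over all omissions between 3.46 and 5.20 for S100a8. Without iPCKO 1, the lung with the lowest levels, all 8 were past the thresholds.

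Order of levels was clear in controls and blurred in iPCKO lungs. In controls S100a9 (mean 44.4 RPKM) exceeded S100a8 (31.0), S100a8 exceeded Ngp (8.98), Camp (5.35) exceeded Lcn2 (2.71), Retnlg (2.66) exceeded Csf3r (1.54) and Csf3r exceeded Mpo, each without overlap of the ranges. Neighbours whose ranges overlapped in controls were Ngp and Ltf (5.76), Ltf and Camp, Lcn2 and Retnlg, and Mpo and Elane. In iPCKO lungs the mean order was S100a9 (1183 RPKM), S100a8 (870), Ngp (121), Retnlg (105), Ltf (74.7), Camp (57.9), Lcn2 (40.8) and Csf3r (12.3), and the ranges of all neighbours down to Csf3r overlapped because the lungs differed so much from each other. Within each of the 3 iPCKO lungs, S100a9 was nonetheless above S100a8, S100a8 above Ngp, Camp above Lcn2 and Lcn2 above Csf3r. Retnlg took a different place in the groups, below Ngp, Ltf and Camp in every control and above Ltf and Camp in every iPCKO lung.

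Summed over the 10 members, RPKM came to 86.7, 129 and 91.5 in controls and 447, 1986 and 4959 in iPCKO lungs. Their share of all RPKM of the sample was 0.034%, 0.054% and 0.038% in controls and 0.169%, 0.783% and 1.99% in iPCKO lungs. S100a8 and S100a9 made up 71.3% to 76.4% of the members' sum in controls and 82.1% to 86.0% in iPCKO lungs. This RNA was pulled down from lysate of whole lung. More cells of a type, more RNA per cell and more RNA carried over from cells without tagged ribosomes cannot be told apart in it.

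Within each iPCKO lung, the 4 late members were on average further above controls than the 4 specific granule members. The mean log2 level of the 4 late members was 3.00, 3.44 and 2.96 in controls and 5.46, 7.36 and 8.48 in iPCKO lungs, a difference of 3.96 between group means. For the 4 specific granule members the means were 1.95, 2.88 and 2.25 in controls and 3.49, 5.44 and 7.22 in iPCKO lungs, a difference of 3.02. Late minus specific was 1.05, 0.55 and 0.71 in controls and 1.96, 1.91 and 1.26 in iPCKO lungs, so every iPCKO lung leaned further to the late members than every control. The smallest gap was that between iPCKO 3 and control 1. As the members were chosen on these groups, no test is given for this shift. Genes outside the members did not show this order of stages. Mature neutrophil genes stood 1.29, 2.62 and 3.12 above their control mean in iPCKO lungs 1, 2 and 3, below the other specific granule genes at 1.67, 3.03 and 3.89. The azurophil mean differed by 1.13, a value that depends on the constant of 0.1 added before the logarithm, because all control values lie under that constant and the highest iPCKO value is 0.369 RPKM.

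Relative to S100a9 of the same lung, S100a8 kept an almost fixed level, 63.1%, 74.6% and 70.2% in controls and 70.7%, 74.1% and 73.6% in iPCKO lungs, while S100a9 itself ranged from 39.9 to 2346 RPKM. Retnlg stood at 4.87% to 6.98% of S100a9 in controls and 7.18% to 9.19% in iPCKO lungs. The specific granule members rose too, but less than S100a9, so their percentages fell. Ngp was at 15.8%, 23.9% and 19.9% of S100a9 in controls and at 8.93%, 7.10% and 11.7% in iPCKO lungs. Camp was at 10.2% to 14.3% in controls and 3.95% to 5.28% in iPCKO lungs. Ltf was at 9.79% to 15.5% and 4.53% to 7.24%, and Lcn2 at 4.61% to 6.80% and 3.01% to 3.65%, controls first. None of these 4 ranges overlapped between the groups. Any gene that rose less than S100a9 falls on this scale, and the share of all genes with this pattern was not counted. Csf3r behaved differently again, with 3.05%, 3.59% and 3.76% in controls, 3.01% in iPCKO 1, and 1.23% and 0.782% in iPCKO 2 and iPCKO 3. Cxcr2, the chemokine receptor of mature neutrophils, was at 2.59% to 4.01% of S100a9 in controls and at 1.4%, 0.65% and 0.335% in iPCKO lungs. Both receptors were lowest, relative to S100a9, in the lung with the most S100a9. From iPCKO 2 to iPCKO 3 Csf3r rose 1.52-fold and Cxcr2 1.23-fold, against 2.39-fold for S100a9. Of 11686 genes 0.394% reached a ratio of 2 or more between these lungs, so this fall is not particular to the receptors.

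**Figure D2:**
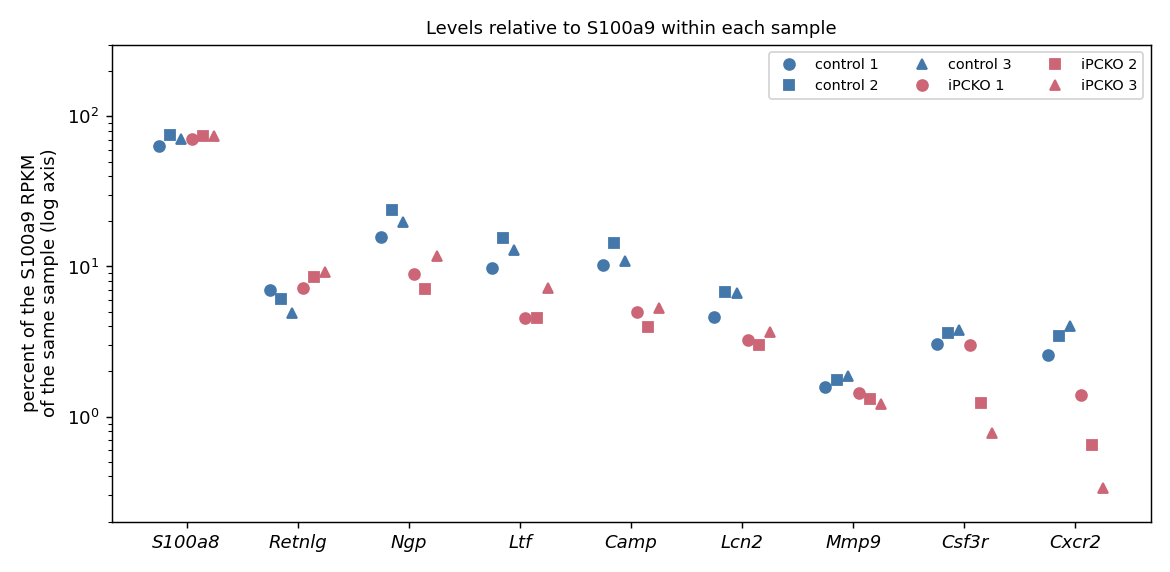
RPKM of 9 genes as a percentage of the S100a9 RPKM of the same lung, on a log axis, with 1 point per lung. S100a8 stays between 63.1% and 74.6%, the specific granule members Ngp, Ltf, Camp and Lcn2 are lower in every iPCKO lung than in every control, and the receptors Csf3r and Cxcr2 reach their lowest values in iPCKO 3. A gene that rises less than S100a9 falls on this scale.

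Among themselves the specific granule members also held near-constant proportions. Ltf was at 62.0%, 65.0% and 64.7% of Ngp in controls and 50.7%, 63.8% and 61.9% in iPCKO lungs. Camp was at 55.0% to 64.4% of Ngp in controls and 45.2% to 55.8% in iPCKO lungs, and Lcn2 at 28.5% to 33.6% and 31.3% to 42.4%. Ltf and Lcn2 overlapped between the groups, and Camp did so at the edge of the ranges. Mmp8, the collagenase of the same granules, stood at 7.99% to 8.15% of Ngp in controls and 12.6%, 20.002% and 14.4% in iPCKO lungs.

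The iPCKO lungs were not alike, and the late and specific granule members separated them in different ways. From the control mean to iPCKO 1 the median ratio was 5.004 for the late members and 2.13 for the specific granule members. Between iPCKO 2 and iPCKO 1 it was 4.55 for the late members and 3.84 for the specific granule members. Between iPCKO 3 and iPCKO 2 the order was turned, with 2.38 for the late members (1.52 to 2.60) and 3.51 for the specific granule members (2.90 to 3.93). Over 11686 genes the median ratio of iPCKO 3 to iPCKO 2 was 0.975, and 46 genes (0.394%) reached a ratio of 2 or more, whereas 3 of the 4 late and all 4 specific granule members did. The 9 other tested specific granule genes did not share the pattern of the members, with a median ratio of 3.44 from the control mean to iPCKO 1 and of 1.87 (1.004 to 3.22) between iPCKO 3 and iPCKO 2. Receptors and other genes of mature neutrophils showed a median ratio of 1.33 in the same pair of lungs, pan-leukocyte markers 1.31 and macrophage markers 0.802. The libraries as a whole were close in scale, with factors by the median-ratio method between 0.977 and 1.02.

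Neutrophil genes that were not members were counted over 4 lists. Of 40 listed genes 25 were tested, 13 were called higher and 0 lower in limma (24 and 0 at an unadjusted p under 0.05), beside the 4.11% and 2.68% over all tested genes. The lists were written with earlier results of these data known. Their median log2 difference was 2.30, against a median of 0.00 over all tested genes with a median SE of 0.12. These medians rest on unlike genes. At 1 RPKM or more in all 6 samples were 8 of the 25 genes, against 11389 of all 12034 tested genes. Because low genes can pass the filter through iPCKO lungs alone, the 8 genes at 1 RPKM or more in all 6 samples were counted apart, and 5 of these were called higher. The count of 13 fell to 3 without control 1 or control 3, to 2 without iPCKO 2 and to 7 without iPCKO 3, and was 21 without iPCKO 1.

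Other azurophil granule genes were also low, and none of 5 passed the filter. Prtn3, proteinase 3, which lies 3.07 kb from Elane, had 0.117, 0.033 and 0.050 RPKM in controls and 0.273, 0.437 and 0.567 RPKM in iPCKO lungs, the latter about 10, 30 and 14 reads. Ctsg, cathepsin G, had 0, 0.172 and 0.029 RPKM in controls and 0.189, 0.126 and 0.280 RPKM in iPCKO lungs, and overlapped between the groups. Prss57 and Ms4a3 were listed at 0 in every control and reached 0.148 and 0.277 RPKM in iPCKO 3. Fcnb, the ficolin of early granulocytes, was the highest of them, with 0.038, 0.214 and 0.108 RPKM in controls and 0.282, 0.433 and 2.99 RPKM in iPCKO lungs. All 5 genes had their highest RPKM in iPCKO 3, as Mpo and Elane did. That library was the shallowest, with 14.2 M implied reads against 39.6 M in iPCKO 2, so 1 read weighs more there. In reads, Prtn3 (about 30), Ctsg (5.1) and Elane (5.3) were highest in iPCKO 2.

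Of 10 other specific granule genes 9 were tested and 6 called higher, with a median difference of 3.23. At 1 RPKM or more in all 6 samples were 4 genes, of which 3 were called. Wfdc21, a small secreted protein with a protease inhibitor fold, rose by 4.19 (SE 0.70) and had 0.585, 1.19 and 0.930 RPKM in controls and 4.90, 21.8 and 50.6 in iPCKO lungs. Olfm4, olfactomedin 4, which marks a subset of neutrophils, rose by 3.23 (SE 0.62), and Pglyrp1, a peptidoglycan-binding protein of these granules, by 3.23 (SE 0.51). Among the other genes of this list, Cyba, a subunit of the NADPH oxidase that many cell types express, had 55.0 to 69.3 RPKM in controls and 83.5 to 97.6 in iPCKO lungs and was not called (limma adjusted p = 0.018). Of 5 gelatinase granule genes 4 were tested and 1 was called, Mmp9 (gelatinase B), with a difference of 3.62 (SE 0.64). Mmp9 was under 1 RPKM in every control, and 0 of the 2 genes at 1 RPKM or more in all 6 samples were called. Slc11a1, a metal transporter shared with macrophages, was the exception to the common direction, with 2.74 to 3.38 RPKM in controls and 1.87 to 2.74 in iPCKO lungs, and was not called.

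Genes of mature neutrophils were called higher in 6 of 12 tested cases out of 20 listed, with a median difference of 2.28. The largest was Asprv1, a retroviral-like aspartic protease, with 0.730, 0.6001 and 0.792 RPKM in controls and 4.42, 16.1 and 33.1 RPKM in iPCKO lungs (difference 4.07, SE 0.59). It was followed by Clec4d, a C-type lectin receptor, at 2.75 (SE 0.38), and Trem1, an activating receptor, at 2.51 (SE 0.46). Asprv1, Clec4d and Trem1 were under 1 RPKM in every control. In this list 2 genes reached 1 RPKM or more in all 6 samples, and 2 of these were called. Ly6g, the surface antigen by which mouse neutrophils are usually recognised, had 0.302, 0.853 and 0.515 RPKM in controls and 1.12, 3.68 and 12.5 RPKM in iPCKO lungs, and was not called (limma adjusted p = 0.041).

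**Figure D3:**
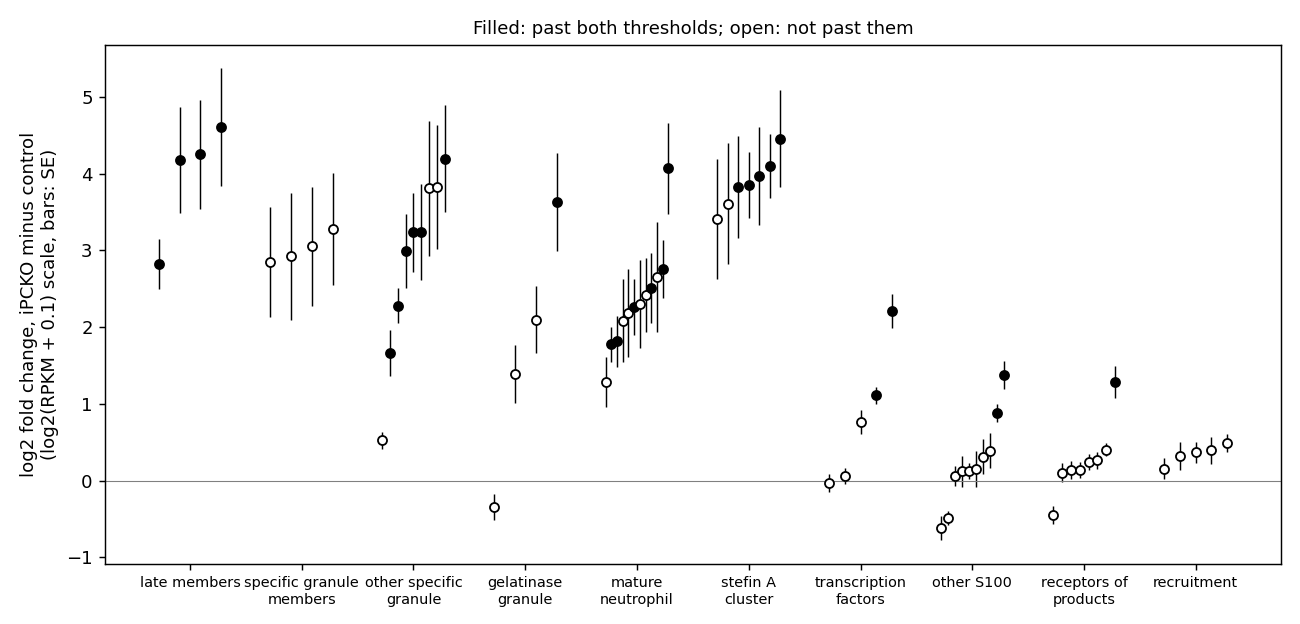
Log2 fold change of each tested gene, iPCKO minus control, on the log2(RPKM + 0.1) scale with its SE, grouped by list; filled points are past both thresholds. The late members reach 4.60, the specific granule members lie near 3, and the other S100 genes, the receptors of neutrophil products and the recruitment genes lie near 0 with few filled points.

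The stefin A cluster on chromosome 16, which encodes small cysteine protease inhibitors of myeloid cells, held several of the genes whose profiles, compared below, were nearest to the calgranulins. Of 9 listed genes 7 were tested and 5 called higher, with a median difference of 3.85. At 1 RPKM or more in all 6 samples were 6 genes, of which 4 were called. Stfa2 rose by 4.46 (SE 0.64), with 4.32, 4.75 and 3.75 RPKM in controls and 29.0, 115 and 260 RPKM in iPCKO lungs. It stood at 8.998% to 10.6% of S100a9 in controls and 11.1% to 13.1% in iPCKO lungs. 2010005H15Rik rose by 4.09 (SE 0.42) and Gm5483 by 3.96 (SE 0.64). The cluster did not move as 1 block. From iPCKO 1 to iPCKO 2 the ratio was 1.70 for 2010005H15Rik and 1.71 for Stfa1. It was 3.62 for Gm5483, 4.66 for S100a8 and 4.44 for S100a9. The copies of this cluster are near-identical, so the split of reads between copies is uncertain. Together the copies made up 0.014% to 0.021% of all RPKM in controls and 0.074%, 0.270% and 0.673% in iPCKO lungs.

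Likeness of profiles was measured as the root mean square difference of centred log2 values over the 6 samples. Nearest to the mean of S100a8 and S100a9 among tested genes outside the members was Wfdc21 at 0.17, followed by Gm5483, Stfa2, Stfa2l1, Mmp8, Asprv1, Mmp9, BC100530, Cd177 and Stfa3 at 0.44. Of the members Retnlg lay at 0.27 from this profile, Lcn2 at 0.49, Ngp at 0.63 and Csf3r furthest at 0.91. Nearest to the mean of Ngp, Camp and Ltf was Ly6g at 0.22, followed by Stfa3, BC100530, Ifitm6, Pglyrp1, Mmp9, Mmp8, Ppbp, Chil3 and Cd177 at 0.51. Mmp8, Mmp9, BC100530, Cd177 and Stfa3 stood on both rankings. Ifitm6, an interferon-induced transmembrane protein gene that was in no list, had 2.44, 4.13 and 1.86 RPKM in controls and 10.8, 26.9 and 70.0 RPKM in iPCKO lungs.

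The other S100 genes did not follow S100a8 and S100a9. Of 14 listed genes 10 were tested, 2 were called higher and 0 lower in limma (2 and 2 at an unadjusted p under 0.05), with a median difference of 0.14. S100a4, a calcium-binding protein of fibroblasts and leukocytes, rose by 1.37 (SE 0.18), with 12.2, 17.8 and 10.4 RPKM in controls and 32.8, 32.1 and 37.5 in iPCKO lungs. S100a1 rose by 0.88 (SE 0.12), with 5.62 to 6.29 RPKM in controls and 9.49 to 12.4 in iPCKO lungs. In neither gene did the iPCKO lungs spread as they did for the calgranulins. S100a11 had 124 to 150 RPKM in controls and 68.1, 91.2 and 104 RPKM in iPCKO lungs and was not called (log2 difference -0.62, limma adjusted p = 0.035). S100a10, the partner of annexin A2, had 67.0 to 71.8 RPKM in controls and 45.9 to 53.1 in iPCKO lungs and was not called because its adjusted p was 0.0082 in limma but its log2 difference of -0.49 was short of the threshold.

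**Figure D4:**
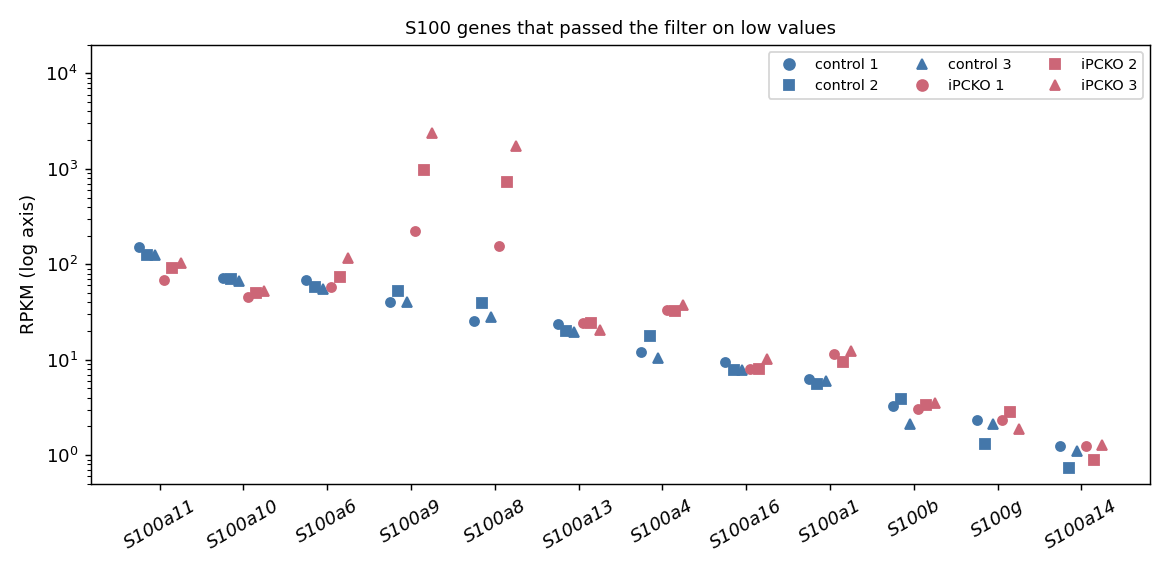
RPKM of the 12 S100 genes that passed the filter, on a log axis, ordered by control mean, with 1 point per lung. S100a8 and S100a9 are the only ones in which the iPCKO lungs spread over an about 11-fold range, and S100a11 and S100a10 have every iPCKO lung below every control.

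Transcription factors of the granule programme differed among themselves. Cebpe, which specific granule genes require, did not pass the filter, with 0.041, 0.139 and 0.186 RPKM in controls and 0.687, 0.734 and 1.93 RPKM in iPCKO lungs. Gfi1, a repressor needed for granulocyte differentiation, was at 0.023 to 0.151 RPKM in all samples. Of 5 tested factors 2 were called higher. Spi1, which encodes PU.1, rose by 2.20 (SE 0.22), with 1.94, 2.21 and 1.53 RPKM in controls and 6.38, 9.74 and 11.7 in iPCKO lungs, and Runx1 rose by 1.11 (SE 0.11), with 5.71 to 6.87 RPKM in controls and 12.7 to 15.1 in iPCKO lungs. Cebpb had 7.65 to 11.9 RPKM in controls and 15.1 to 16.8 in iPCKO lungs and was not called (limma adjusted p = 0.013). Cebpa (7.29 to 9.998 RPKM over all samples) and Cebpd (17.0 to 21.02 RPKM) overlapped between the groups.

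Receptors for the members' products gave 1 call among 8 tested genes. This was Emb, embigin, a receptor for calprotectin, which rose by 1.28 (SE 0.21) from 3.87 to 4.96 RPKM in controls to 8.28, 9.52 and 15.3 RPKM in iPCKO lungs. Tlr4 and Ager, the toll-like and the advanced glycation end-product receptors of calprotectin, were not called. Tlr4 had 4.70 to 6.16 RPKM in controls and 3.80 to 4.21 in iPCKO lungs, and Ager had 26.6 to 29.4 and 34.3 to 39.2. Of the protease inhibitors that restrain neutrophil enzymes, 3 of 6 tested were called higher, and 2 of the 5 at 1 RPKM or more in all 6 samples. Serpina3g, a serpin of leukocytes, rose by 3.27 (SE 0.22), Slpi, the secretory inhibitor of elastase, by 2.82 (SE 0.44) and Timp1, which inhibits MMP9, by 1.29 (SE 0.17).

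Recruitment genes gave no call in limma among 5 tested of 13 listed, with 2 of the 5 higher at an unadjusted p under 0.05, Icam1 among them (limma adjusted p = 0.029). Csf3, which encodes G-CSF, the ligand of Csf3r, was listed at 0 in all 6 samples. Cxcl1, Cxcl2, Cxcl3 and Cxcl5, which are among the chemokines that act on Cxcr2, did not pass the filter. The chemokine gene Ppbp, counted here with the platelet markers, was called higher. It had 1.22, 2.02 and 1.17 RPKM in controls and 4.72, 18.3 and 25.8 in iPCKO lungs. The highest recruitment genes were Cxcl15, a chemokine of lung epithelium, with 18.9 to 21.7 RPKM in controls and 18.5 to 32.9 in iPCKO lungs, and Icam1, the adhesion molecule to which neutrophil integrins bind, with 8.31 to 10.4 and 12.0 to 14.8. Among 9 genes of inflammatory stroma 5 were tested and 1 was called, Lrg1, which encodes a glycoprotein made by neutrophils and endothelium. It rose by 5.15 (SE 0.46), from 0.563, 0.467 and 0.171 RPKM in controls to 8.29, 18.8 and 28.8 RPKM in iPCKO lungs. Lrg1 thus passed the filter through iPCKO lungs alone, and 0 of the 2 stroma genes at 1 RPKM or more in all 6 samples were called. Retnla, a resistin-like gene related to Retnlg, was not called, with 4.24, 1.44 and 1.74 RPKM in controls and 2.53, 4.05 and 39.2 in iPCKO lungs.

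Markers of other blood cells moved with the members to different degrees. Of 10 pan-leukocyte markers 8 were called higher, with a summed level of 61.3 to 83.7 RPKM in controls and 152 to 266 in iPCKO lungs, among them Tyrobp, Fcer1g and Cd52. Of 6 tested platelet markers, out of 8, 5 were called higher, with sums of 8.18 to 10.1 and 23.5 to 66.7 RPKM. Of 5 tested monocyte markers, out of 6, 3 were called higher (sums of 6.64 to 12.0 and 22.5 to 40.3 RPKM), and of 9 macrophage markers 1 was, Marco (20.5 to 29.9 and 33.3 to 60.9 RPKM). Low markers could pass the filter through iPCKO lungs alone. Among markers at 1 RPKM or more in all 6 samples, 8 of 10 pan-leukocyte and 2 of 3 platelet markers were called higher. So were 1 of 3 monocyte and 0 of 7 macrophage markers. Over all tested genes 4.11% were called higher. No marker of these 4 lists was listed at 0 in any sample. Haemoglobin and other erythrocyte markers gave 0 calls of 7 in limma and 0 at an unadjusted p under 0.05, and their sum was 2222, 2783 and 2442 RPKM in controls and 6027, 1370 and 2553 in iPCKO lungs. The lung with the fewest member transcripts among the iPCKO lungs thus had the most erythrocyte RNA. T cell markers did not pass the filter, and of 3 tested markers of eosinophils, basophils and mast cells 0 were called (1 at an unadjusted p under 0.05 in limma). Endothelial markers gave 1 call of 6 and epithelial markers 1 of 7, with sums of 127 to 137 and 134 to 147 RPKM for endothelium and 506 to 593 and 755 to 801 for epithelium, controls first. The part of any of these cells in the members' levels was not tested.

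**Figure D5:**
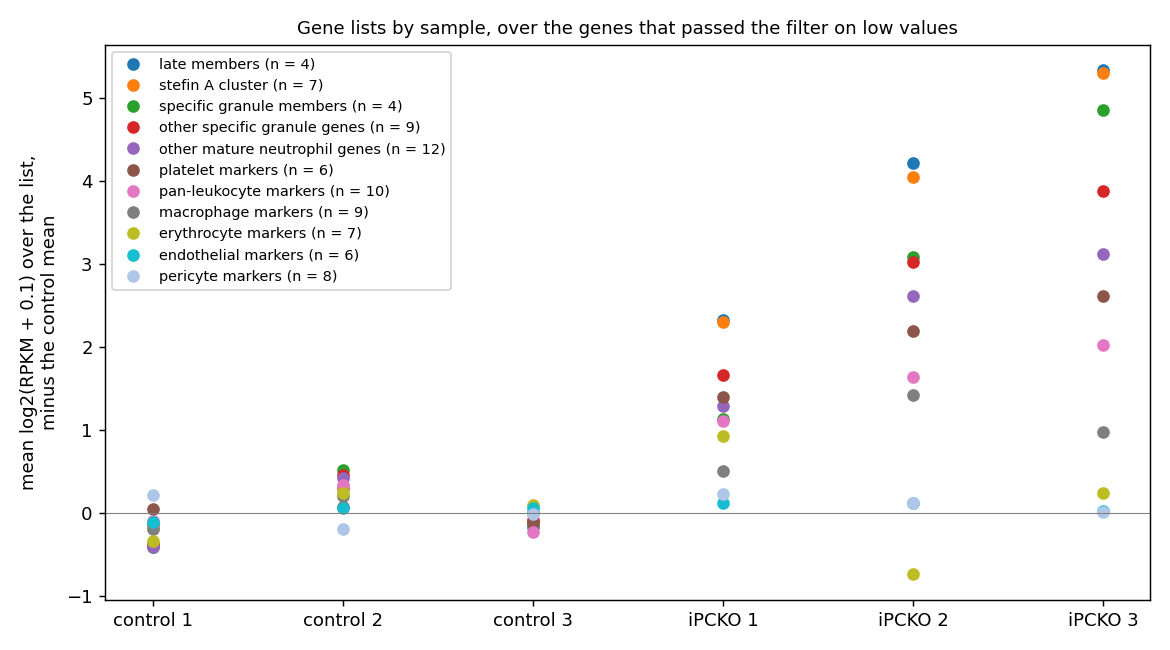
Mean log2(RPKM + 0.1) over the tested genes of each list minus its control mean, for each lung, with the number of genes in the legend. In iPCKO lungs 1, 2 and 3 the late members stand at 2.32, 4.22 and 5.34, the specific granule members at 1.13, 3.08 and 4.86, and the erythrocyte, endothelial and pericyte markers lie below 1 in every lung. The pericyte mean joins markers that were called higher with markers that were called lower.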

How the data were processed

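Ribosome-bound RNA of 6 lungs (3 control, 3 iPCKO) was sequenced. The authors aligned the read pairs with TopHat to the mm10 build (GRCm38), counted them with HTSeq (0.6.1), tested counts with DESeq2 and deposited RPKM values for 21603 genes per sample. RPKM carry a division by depth and by gene length, and counts were not used here. Of these genes 21375 were named from GENCODE M21.

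The members and gene lists were chosen with earlier results of these data known. RPKM were tested as log2(RPKM + 0.1) without further scaling by limma 3.58.1 (R 4.3.3, intensity trend, Benjamini-Hochberg adjustment) in the 12034 genes with at least 1 RPKM in at least 3 samples. This scale understates changes of low genes. Members were described, with no test used as support. An exact permutation test of 3 against 3 cannot go below p = 0.1, and none was used. The limma script was tested on simulated data.

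Named genes were all members, any azurophil gene or transcription factor listed, up to 3 called genes per list by size of change, up to 2 by level where none was called, and the 10 nearest profiles; other genes named were chosen after their values were seen. A listed marker gene is not reported here. Depth was read from the steps of low values, where 74.8% to 76.5% of values were within 0.02 reads of a whole number. Sequences came from RefSeq. Alternatives were pseudocounts of 1 and 0.01, other filters, median-ratio scaling, a replicate block, no intensity trend, other thresholds and each sample left out. Other tools were matplotlib 3.10.9, scipy 1.17.1, pandas 2.3.3, numpy 2.4.6 and Python 3.11.15.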

Additional observations from a re-analysis of the deposited data

How the results depend on the processing

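No result turned its direction under any alternative tried. Over all tested genes, the 817 calls became 1313 at an adjusted p below 0.05 and 411 at an absolute log2 fold change above 1, and ranged from 382 to 899 with 1 lung left out. The 13 calls among neutrophil genes outside the members became 8 without a filter on low values, 5 with 1 RPKM required in all 6 samples (8 genes tested), 8 without the intensity trend and 24 at an adjusted p below 0.05, and ranged from 2 to 21 with 1 lung left out; apart from the filters, where the genes tested changed, the cause was not tested. Without a filter the called members were Csf3r and Elane. The azurophil mean difference of 1.13 was 0.19 with a pseudocount of 1 and 3.18 with 0.01, since its control values lie under the pseudocount of 0.1. With 1 lung left out the mean difference of the late members ranged from 3.27 to 4.78, that of the specific granule members from 2.11 to 3.97 and that of the azurophil members from 0.71 to 1.45. Samples with the same number in both groups correlated in their deviations at 0.24, 0.09 and 0.02, and differently numbered ones at -0.3 to 0.27, so the numbers were not taken as pairs. With the replicate block 922 genes, 23 of the neutrophil genes and 5 members were called, Lcn2 being added. Mpo and Elane rest on at most about 18 and 5.3 reads per lung, and on at most 1 in controls, which limits what can be said of them.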

Other observations

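The B cell genes Cd79b and Ms4a1 lay in the direction opposite to that of the members. Cd79b, a subunit of the B cell receptor, had 2.73, 2.24 and 2.82 RPKM in controls and 2.21, 1.29 and 1.42 in iPCKO lungs. Ms4a1, which encodes CD20, had 1.63, 1.90 and 1.72 RPKM in controls and 1.54, 0.552 and 0.512 in iPCKO lungs. Both genes had every iPCKO lung below every control, a pattern shown by 17.1% of tested genes, and neither was called (limma adjusted p = 0.065 for Cd79b and 0.073 for Ms4a1). Of 4 listed B cell genes 3 were tested and 0 called in either direction, and the gene that was not tested overlapped between the groups. In Cd79b and Ms4a1 the lowest lungs were iPCKO 2 and iPCKO 3, which had the highest levels of the members.

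Saa3, an acute-phase gene of inflamed stroma and macrophages, did not pass the filter and was named after its values were seen. It had 0.956, 0 and 0.597 RPKM in controls and 0.445, 16.7 and 4.36 RPKM in iPCKO lungs, so that its highest lung was iPCKO 2 and not iPCKO 3, where the calgranulins peaked.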
